A study of Mus musculus with 2 samples.

Results

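The genes described here are 8 members of the Wnt/β-catenin pathway, chosen by symbol: the targets and feedback inhibitors Axin2, Nkd1, Dkk1 and Sp5, the DNA-binding factors Lef1, Tcf7 and Tcf7l1, and Ctnnb1, which encodes β-catenin. All 8 were present among the 55415 features of the count tables. They were measured cell by cell in mESC, the pluripotent embryonic stem cells of the mouse that renew themselves in culture. There was 1 library of cells labelled positive for MERVL::GFP and 1 of cells labelled negative. Both came from a line that carries GFP driven by MERVL, an endogenous retrovirus that the 2-cell embryo transcribes, together with H2B-mIFP, an infrared fluorescent tag of the nucleus for following cells. The study set out to follow the fate of cells in the 2C-like state, in which embryonic stem cells transcribe genes of the 2-cell embryo such as the Zscan4 family. The strain, the culture medium, the way cells were separated by reporter signal and whether the line is a single clone are not given in the sources used here. Each group had 1 library, so no difference between groups has a replicate check, and the library cannot be told apart from the group.

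In the canonical Wnt pathway, secreted Wnt proteins bind Frizzled receptors and LRP5/6 co-receptors, which halts a cytoplasmic complex that otherwise marks β-catenin for destruction. β-catenin then enters the nucleus and joins TCF/LEF factors on DNA, and target genes are transcribed. Several targets encode inhibitors of the same pathway, so that a signalling cell limits its own response. In mouse embryonic stem cells, Tcf7l1 acts mainly as a repressor of pluripotency genes, and raised β-catenin signalling favours self-renewal. Wnt signalling is also active around the primitive endoderm, the extraembryonic layer marked by Gata6 and Dab2.

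Gene positions were read from GENCODE on GRCm38, the same assembly as the mm10 build named in the submitters' processing notes. Axin2 (ENSMUSG00000000142) lies at chr11:108920349-108950783 on the plus strand, Nkd1 (ENSMUSG00000031661) at chr8:88521354-88594884 on the plus strand, Dkk1 (ENSMUSG00000024868) at chr19:30545863-30549665 on the minus strand and Sp5 (ENSMUSG00000075304) at chr2:70474923-70477729 on the plus strand. Lef1 (ENSMUSG00000027985) lies at chr3:131110471-131224356 on the plus strand, Tcf7 (ENSMUSG00000000782) at chr11:52252371-52283014 on the minus strand, Tcf7l1 (ENSMUSG00000055799) at chr6:72626378-72789254 on the minus strand and Ctnnb1 (ENSMUSG00000006932) at chr9:120929216-120960507 on the plus strand. All 8 are protein-coding genes. The values cover whole genes, so no exon, intron or UTR can be singled out. Exons of Axin2, Lef1 and Ctnnb1 overlap those of the antisense genes Gm11670, Gm43352 (Lef1os1 in the count tables) and Ulk4, and whether the counting used strand is not given in the sources used here. Gm11670 had 0 and 2 UMIs (counts read as captured molecules) in the positive and negative library, and Lef1os1 had 4 and 35. Ulk4 stood at 8.92 and 3.80 CPM (counts per 1e6 UMIs) against 242 and 178 CPM of Ctnnb1. Tcf7l1 shares 179 exonic bases with Gm15401, which had 11 UMIs in each library.

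The promoter windows of 3 targets are shown because Axin2 and Dkk1 varied most among the targets and inhibitors and Sp5 and Dkk1 were the only members whose windows held the searched TCF/LEF letters. Each window runs from 250 bases before to 50 after the RefSeq transcription start on GRCm38.p6, 5′ to 3′ on the strand of the gene. They are chr11:108920099-108920398 for Axin2, chr19:30549447-30549746 for Dkk1 and chr2:70474673-70474972 for Sp5. Capitals mark CTTTGAT or CTTTGTT, forms of the sequence bound by TCF/LEF factors, or their reverse complements ATCAAAG and AACAAAG.
Axin2: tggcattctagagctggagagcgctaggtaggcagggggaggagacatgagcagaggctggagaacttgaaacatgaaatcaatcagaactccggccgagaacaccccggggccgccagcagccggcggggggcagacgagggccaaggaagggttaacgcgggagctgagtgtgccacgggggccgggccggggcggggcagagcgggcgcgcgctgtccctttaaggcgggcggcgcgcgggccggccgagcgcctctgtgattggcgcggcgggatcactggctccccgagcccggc
Dkk1: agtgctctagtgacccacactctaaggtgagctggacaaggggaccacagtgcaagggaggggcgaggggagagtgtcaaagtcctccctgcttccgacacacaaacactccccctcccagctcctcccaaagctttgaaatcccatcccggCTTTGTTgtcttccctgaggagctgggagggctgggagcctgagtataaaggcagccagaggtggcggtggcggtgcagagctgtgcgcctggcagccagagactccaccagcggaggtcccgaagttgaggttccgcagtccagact
Sp5: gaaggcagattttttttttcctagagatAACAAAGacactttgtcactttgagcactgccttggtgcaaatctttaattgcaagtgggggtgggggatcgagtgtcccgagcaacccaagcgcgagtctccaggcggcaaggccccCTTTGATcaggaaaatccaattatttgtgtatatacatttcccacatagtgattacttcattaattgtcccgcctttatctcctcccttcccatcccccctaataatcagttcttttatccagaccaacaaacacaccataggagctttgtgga
The Sp5 window held CTTTGAT starting 104 bases before the start site and, apart from it, AACAAAG starting 222 bases before. The Dkk1 window held CTTTGTT starting 98 bases before the RefSeq start. GENCODE places the start of Dkk1 farther upstream, at 30549665, so this match lies inside the gene as positioned above. Both strands were searched in the 13 RefSeq windows of the 8 members, and 2 windows, 1 of each of these genes, held a match. Of all 32851 mouse windows of this length, 3.73% held the first motif on either strand, 5.85% the second and 9.33% either. A match describes the letters of a window and not a bound site.

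The positive library held 4603 cells with 138364094 UMIs and the negative library 3832 cells with 156406894 UMIs. After a light filter on cells the median depth was 29554.5 and 39099.5 UMIs per cell, and the median mitochondrial share was 2.56% and 1.60%. The libraries shared 3 cell barcodes. Of the mES markers Pou5f1, Sox2, Nanog, Zfp42 and Esrrb, all 5 were detected in both libraries, with summed levels of 2087 and 2401 CPM. The 9 2C-like markers summed to 472 and 0.722 CPM, 8 primitive endoderm markers to 199 and 95.7 CPM, 6 parietal endoderm markers to 683 and 265 CPM, 5 mesendoderm markers to 7.58 and 3.81 CPM, 8 fibroblast markers to 13.8 and 3.86 CPM and 5 trophoblast markers to 25.1 and 41.5 CPM. Of the 5 trophoblast markers, 4 were higher in the positive library although their sum was lower. Foxa2 is in both the primitive endoderm and the mesendoderm list. The part of all these markers in the differences between the libraries was not tested.

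For levels within a library, each cell with at least 10000 UMIs was thinned to 10000 and classed by its UMIs of Zscan4a to Zscan4f, of GFP, or of Gata6 and Dab2 together, as 0, 1 to 4, or 5 or more. The classes are called zero, middle and high below, and they are ranges of a count and not cell types. In the positive library 869 cells were Zscan4-high and 1913 Zscan4-zero, 762 were GFP-high and 1718 GFP-zero, and 396 were Gata6/Dab2-high and 3258 Gata6/Dab2-zero. In the negative library 195 cells were Gata6/Dab2-high and 3379 Gata6/Dab2-zero, while 2 cells were Zscan4-high and 0 were GFP-high, so its Zscan4 and GFP classes give no comparison. Many cells lay near the limit of a class: in the positive library 161 cells had 4 Zscan4 UMIs and 111 had 5, 288 had 4 GFP UMIs and 189 had 5, and 55 had 4 Gata6/Dab2 UMIs and 43 had 5. Zscan4-high cells had a median of 22767 UMIs against 32641 in Zscan4-zero cells, and GFP-high cells 24312 against 32593. Gata6/Dab2-high and zero cells were closer in depth, with 29839 against 30595.5 UMIs in the positive library and 39680 against 39253 in the negative library.

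Between the libraries, Lef1 was 5.53-fold lower in the positive library, while Axin2 and Dkk1 were 2.88-fold and 2.44-fold higher. Nkd1 and Ctnnb1 were also above their negative-library levels and Tcf7 below, all by less than 2-fold. A gene was tested where it had at least 1 CPM in a library and 50 UMIs in all, which 7 of the 8 members met and Sp5 did not. With a plain ratio of CPM of at least 2 as the threshold, 2 of the 7 members were higher, against 14.7% of the 14590 genes tested, and 1 was lower, against 1.91% of them, so that 3 of 7 were past 2-fold in either direction, against 16.6%. The median log2 ratio was 0.45 for the 7 members and 0.22 for all genes tested. Scaling by TMM, which assumes that most genes have equal levels, moved the latter median to -0.08 and the split of all genes from 2141 higher and 279 lower to 1503 higher and 706 lower. The median-of-ratios scaling moved them to -0.07, 1504 and 702.

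**Figure D1:**
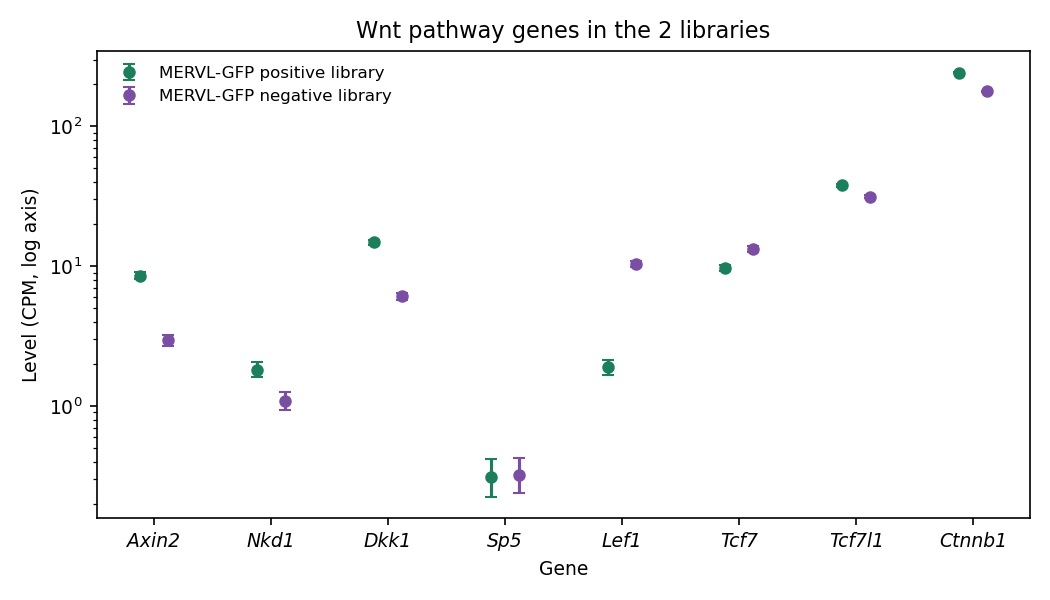
Level of each of the 8 genes in the MERVL-GFP positive and negative library, in CPM on a log axis, with 95% Poisson intervals that cover counting error only. Points compare the libraries within a gene and not one gene with another. Axin2 stood at 8.52 and 2.96 CPM, Dkk1 at 14.8 and 6.07, and Lef1 at 1.89 and 10.4, with intervals that do not overlap.

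Axin2, a scaffold of the destruction complex and a widely used target of β-catenin, stood at 8.52 CPM in the positive library (Poisson interval 8.05 to 9.03, from 1179 UMIs), above the 2.96 CPM of the negative library (2.697 to 3.24, from 463 UMIs). The intervals did not overlap, and the ratio was 2.88 (exact interval 2.58 to 3.21, counting error only, as for all intervals below). The ratio ranged from 2.35 to 3.84 over the alternatives run and was largest without Gata6/Dab2-high cells, at 8.19 against 2.13 CPM. Within the positive library Axin2 stood at 6.67, 8.70 and 13.8 CPM in Zscan4-zero, middle and high cells. The high class was 2.07-fold above the zero class (1.78 to 2.41), and the ratio was 1.93 with 1 CPM added to both sides and 1.91 when the high class began at 3 UMIs. Among cells with 0 Gata6/Dab2 UMIs the same contrast was wider, at 15.1 against 5.27 CPM, a ratio of 2.86 (2.38 to 3.43). By GFP the levels were 6.91, 9.52 and 10.4 CPM, and the high class was 1.503-fold above zero (1.26 to 1.78). Among cells at 0 for Zscan4, Gata6 and Dab2, a comparison chosen after seeing the data, GFP-high cells stood at 11.4 CPM from 26 UMIs and GFP-zero cells at 4.71 CPM, a ratio of 2.42 (1.52 to 3.71).

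Axin2 was also higher in Gata6/Dab2-high cells, in both libraries. Negative-library levels were 2.05, 3.25 and 18.1 CPM in Gata6/Dab2-zero, middle and high cells, and the high class was 8.84-fold above zero (7.19 to 10.8). The 195 high cells, 5.10% of the negative-library cells, held 31.7% of its Axin2 UMIs. In the positive library the levels were 7.72, 10.4 and 12.1 CPM, a ratio of 1.57 (1.31 to 1.87). The zero class of the positive library holds many Zscan4-high cells. With Zscan4-zero cells alone the levels were 5.27 and 14.0 CPM, a ratio of 2.66 (2.08 to 3.37). In Zscan4-middle cells the contrast was narrower, at 7.90 CPM (7.05 to 8.83) and 10.1 CPM (7.27 to 13.6). In Zscan4-high cells the order was reversed between Gata6/Dab2-zero and middle cells, at 15.1 CPM (13.2 to 17.2) and 11.4 CPM (8.64 to 14.9). Their Gata6/Dab2-high class was too small to give a level. The highest Axin2 levels in each library therefore lay in cells that were high for Zscan4 or for Gata6/Dab2, and the lowest in cells at 0 for both, at 5.27 and 2.05 CPM. Whether the Gata6/Dab2 contrast differs between the libraries was not tested.

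Nkd1, an inhibitor that binds Dishevelled and is itself a Wnt target, had few UMIs. Its level was 1.82 CPM in positive-library cells (1.60 to 2.06, from 252 UMIs) and 1.09 CPM in negative-library cells (0.930 to 1.26, from 170 UMIs), a ratio of 1.68 (1.37 to 2.05). By Zscan4 class it stood at 1.52, 2.03 and 2.26 CPM, with a ratio of high to zero of 1.49 (1.03 to 2.13). By GFP the ratio was 1.16 (0.773 to 1.72), an interval that includes no difference, and it was 0.393 (0.00964 to 2.37) among cells at 0 for Zscan4, Gata6 and Dab2, from 1 UMI in high cells. In Gata6/Dab2-high cells it stood at 2.47 CPM in the negative library against 0.9995 CPM in zero cells, 2.47-fold higher (1.46 to 3.96) from 20 and 138 UMIs. That ratio was 0.963 when UMIs were thinned first, from 2 and 36 UMIs, and 1.73 with 1 CPM added, so the call rests on few molecules. In the positive library the same ratio was 1.24 (0.793 to 1.86).

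Dkk1, a secreted inhibitor that blocks the LRP5/6 co-receptors, was concentrated in Gata6/Dab2-high cells. In the positive library it stood at 2.97, 17.8 and 105 CPM in Gata6/Dab2-zero, middle and high cells, a ratio of high to zero of 35.6 (31.4 to 40.4) that was 26.8 with 1 CPM added and 55.3 among Zscan4-zero cells. Its levels in the negative library were 0.398, 15.6 and 90.5 CPM, and high cells were 227-fold above zero cells (173 to 304), or 65.4-fold with 1 CPM added to both sides. Gata6/Dab2-high cells were 8.996% of the classed cells of the positive library but held 65.3% of their Dkk1 UMIs (63.2 to 67.4), and the 5.10% of negative-library cells in this class held 77.5% (74.7 to 80.1). After thinning, a Dkk1 UMI was seen in 41.9% of Gata6/Dab2-high cells of the positive library (37.0 to 46.95) and in 45.6% of those of the negative one (38.5 to 52.9). The shares in Gata6/Dab2-zero cells were 2.03% and 0.326%. Without thinning the shares were 62.9% and 76.4% in high cells and 4.85% and 1.39% in zero cells. The primitive endoderm markers summed to 1716 CPM in high and 22.3 CPM in zero cells of the positive library and to 1505 and 8.17 CPM in the negative library, Gata6 and Dab2 among them as the genes that define the classes, with all 8 higher in the high class in each library. The 6 parietal endoderm markers summed to 3861 and 272 CPM and to 2632 and 116 CPM.

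Over whole libraries Dkk1 stood at 14.8 CPM in the positive (14.2 to 15.5, from 2049 UMIs) and 6.07 CPM in the negative one (5.69 to 6.47, from 950 UMIs), a ratio of 2.44 (2.26 to 2.64). The ratio was 1.99 under both TMM and median-of-ratios scaling, which is below the 2-fold threshold. Without Gata6/Dab2-high cells it was 3.89 (3.33 to 4.56), at 5.59 against 1.44 CPM. Dkk1 differed in direction by Zscan4 according to which cells were compared. Over all cells it stood at 17.2, 13.9 and 8.72 CPM in Zscan4-zero, middle and high cells, 1.97-fold lower in the high class (1.69 to 2.32). Among cells with 0 Gata6/Dab2 UMIs it stood at 2.13, 2.95 and 5.66 CPM, 2.65-fold higher in the high class (1.97 to 3.58). Single cells carried much of these sums: 1 cell held 52.6% of the 116 UMIs of the middle class and 1 held 24.7% of the 85 UMIs of the high class. Without the cell with the most Dkk1 UMIs on each side the ratio of high to zero was 2.29 (1.64 to 3.20). Gata6/Dab2-middle cells gave the opposite order, at 19.7 CPM (16.9 to 22.8) in Zscan4-zero and 10.4 CPM (7.76 to 13.7) in Zscan4-high cells. There 1 cell held 25.1% of the 179 UMIs of the Zscan4-zero class and 1 held 35.3% of the 51 of the high class. By GFP the levels of Dkk1 were 13.1, 15.7 and 15.97 CPM, a ratio of 1.22. That ratio was 1.05 (0.909 to 1.22) without the top cell of each side and 0.563 when cells were classed at 5000 UMIs. It was 1.78 when the high class began at 10 UMIs.

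Sp5, a zinc-finger factor and direct Wnt target, was near the limit of detection. It had 43 and 50 UMIs in the positive and negative library, or 0.311 CPM (0.225 to 0.419) and 0.320 CPM (0.237 to 0.421). These levels overlapped. In Gata6/Dab2-high cells it had 0 UMIs in both libraries, where 3 counts would stand at 0.242 CPM in the positive and 0.370 CPM in the negative library. Gata6/Dab2-zero cells held 39 and 49 UMIs, at 0.382 and 0.355 CPM. Set to that floor, the high cells of the positive library stood 1.58-fold lower, and the exact interval gave a lower bound of 1.22-fold. No fold can be given for the negative library. Zscan4-high cells held 3 UMIs at 0.141 CPM against 0.298 CPM in zero cells, 2.10-fold lower with an interval of 0.619 to 11.1. A difference by Zscan4 was therefore not detectable at this depth.

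**Figure D2:**
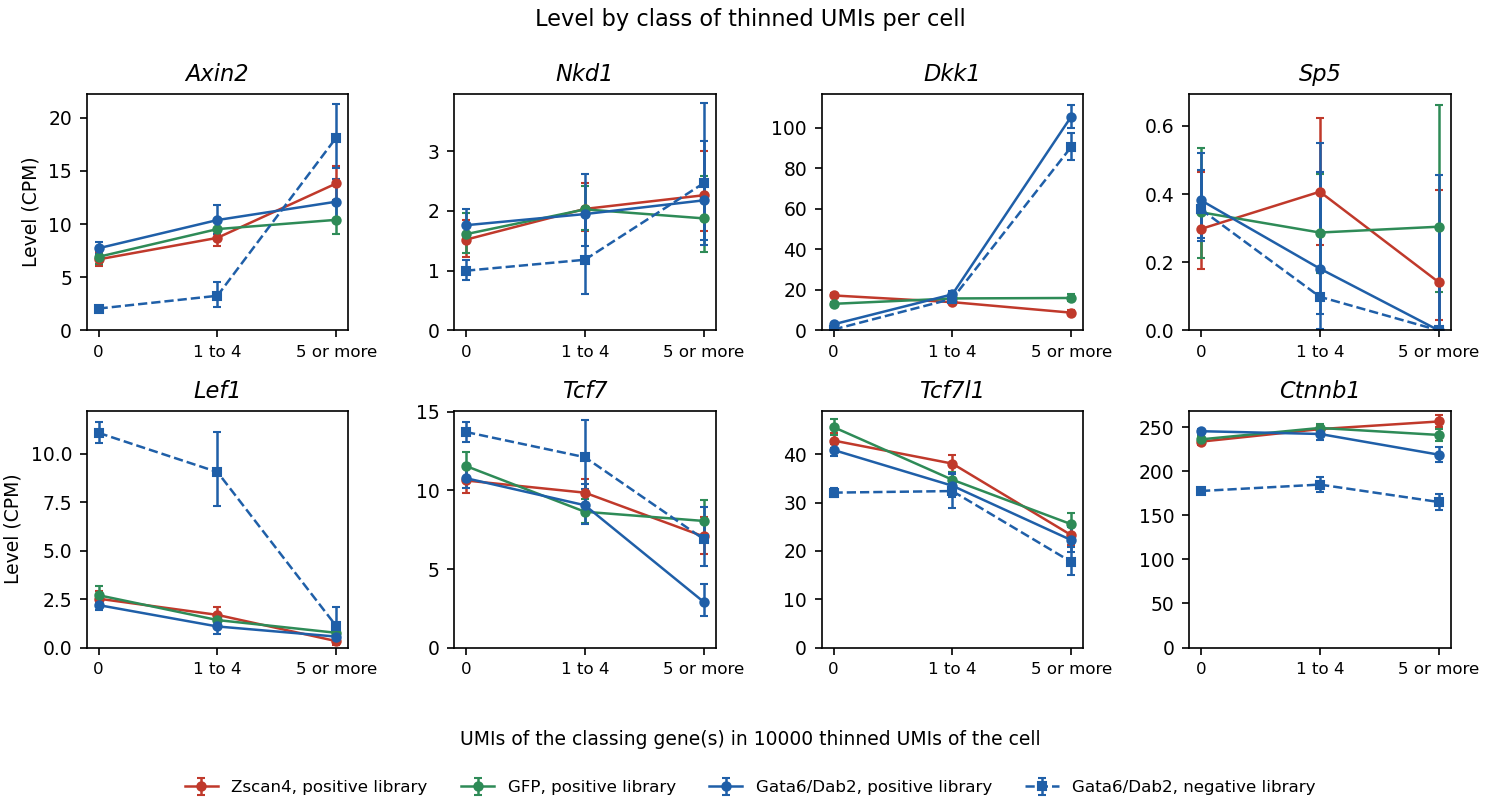
Level in CPM of each gene in cells with 0, 1 to 4, or 5 or more thinned UMIs of Zscan4, GFP or Gata6/Dab2, for the positive library (circles, solid lines) and for Gata6/Dab2 also in the negative library (squares, dashed lines), with 95% Poisson intervals. Lef1 was at most 1.11 CPM in every high class, Axin2 was above its zero class in each series, and Dkk1 passed 90 CPM only in Gata6/Dab2-high cells.

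Lef1, a factor through which β-catenin activates targets and which is itself a Wnt target, differed most between the libraries. The positive library had 1.89 CPM (1.67 to 2.13, from 261 UMIs) and the negative library 10.4 CPM (9.94 to 10.96, from 1633 UMIs), which makes Lef1 5.53-fold lower in the former (4.85 to 6.33). Of all genes tested, 0.00685% had a lower ratio. After thinning, 1.59% of positive-library cells had a Lef1 UMI (1.24 to 2.00), compared with 8.05% of negative-library ones (7.21 to 8.96), or in 4.16% and 20.4% if cells are not thinned. The UMIs were spread over 191 and 783 cells, with at most 8 and 20 in 1 cell.

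Within the positive library Lef1 was lower still in each high class. It stood at 2.52, 1.69 and 0.330 CPM in Zscan4-zero, middle and high cells, the last from 7 UMIs in 869 cells, and was 7.64-fold lower in the high class (3.62 to 19.3), or 2.65-fold lower with 1 CPM added. By GFP it stood at 2.703, 1.42 and 0.760 CPM, 3.55-fold lower in the high class (2.09 to 6.504), or 2.10-fold with 1 CPM added and 13.8-fold, from 1 UMI, when the high class began at 10 UMIs. By Gata6/Dab2 it stood at 2.19, 1.09 and 0.565 CPM, 3.88-fold lower (1.85 to 9.77). The negative library gave Gata6/Dab2 levels of 11.1, 9.07 and 1.11 CPM, 9.99-fold lower (5.25 to 21.9), with 9 UMIs in the high class. Lef1 passed the 2-fold threshold in the lower direction in all 6 comparisons and under each alternative run in them. Its weakest ratio was 0.490, for Gata6/Dab2 in the positive library.

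Tcf7, the TCF factor that mostly activates targets, was less uneven. The libraries had 9.71 CPM (positive, 9.20 to 10.2) and 13.3 CPM (negative, 12.7 to 13.8), 1.37-fold lower (1.27 to 1.46). By Zscan4 it stood at 10.6, 9.86 and 7.07 CPM, and by GFP at 11.6, 8.65 and 8.06 CPM, with ratios of high to zero of 0.665 (0.553 to 0.795) and 0.697 (0.583 to 0.830). Gata6/Dab2-high cells stood apart in the positive library, at 2.90 CPM against 10.8 CPM in zero cells, 3.71-fold lower (2.67 to 5.33). Negative-library levels were 6.90 and 13.7 CPM, 1.99-fold lower (1.52 to 2.64). That value lay at the threshold, and it was past 2-fold in 8 alternatives, with 2.12-fold under TMM scaling.

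Tcf7l1, the repressive TCF factor, stood at 37.8 CPM (36.8 to 38.8) in positive-library and 31.4 CPM (30.5 to 32.3) in negative-library cells, a ratio of 1.204 (1.16 to 1.25). The direction depended on scaling, with ratios of 0.982 under TMM and 0.983 under the median of ratios. Within the positive library it was lower in every high class. It stood at 42.9, 38.1 and 23.3 CPM by Zscan4, at 45.7, 34.8 and 25.6 CPM by GFP and at 40.9, 33.5 and 22.3 CPM by Gata6/Dab2. The ratios of high to zero were 0.543 (0.492 to 0.598), 0.559 (0.508 to 0.616) and 0.544 (0.480 to 0.614). The negative library gave 32.1, 32.4 and 17.8 CPM by Gata6/Dab2, a ratio of 0.553 (0.465 to 0.653). These 4 ratios lay between 0.5 and 0.6, within each other's counting intervals, and the first 2 passed 2-fold when thinned UMIs were summed, at 0.496 and 0.491. With a high class from 10 UMIs the GFP ratio was 0.441 and that of the negative library 0.477.

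Ctnnb1, whose product is the pathway's central transducer and also a part of cell junctions, was found in nearly all cells and was the most even member across the classes of a library. Positive-library cells had 242 CPM (239 to 245) and negative-library cells 178 CPM (175 to 180), a ratio of 1.36 (1.34 to 1.39) that was 1.11 at its lowest, under scaling. By Zscan4 it stood at 234, 248 and 257 CPM and by GFP at 236, 249 and 241 CPM. By Gata6/Dab2 it stood at 246, 242 and 219 CPM in positive-library and at 178, 185 and 165 CPM in negative-library cells. The ratios of high to zero thus ran from 0.892 to 1.10. These are transcript levels, and β-catenin protein, through which the pathway acts, was not measured.

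**Figure D3:**
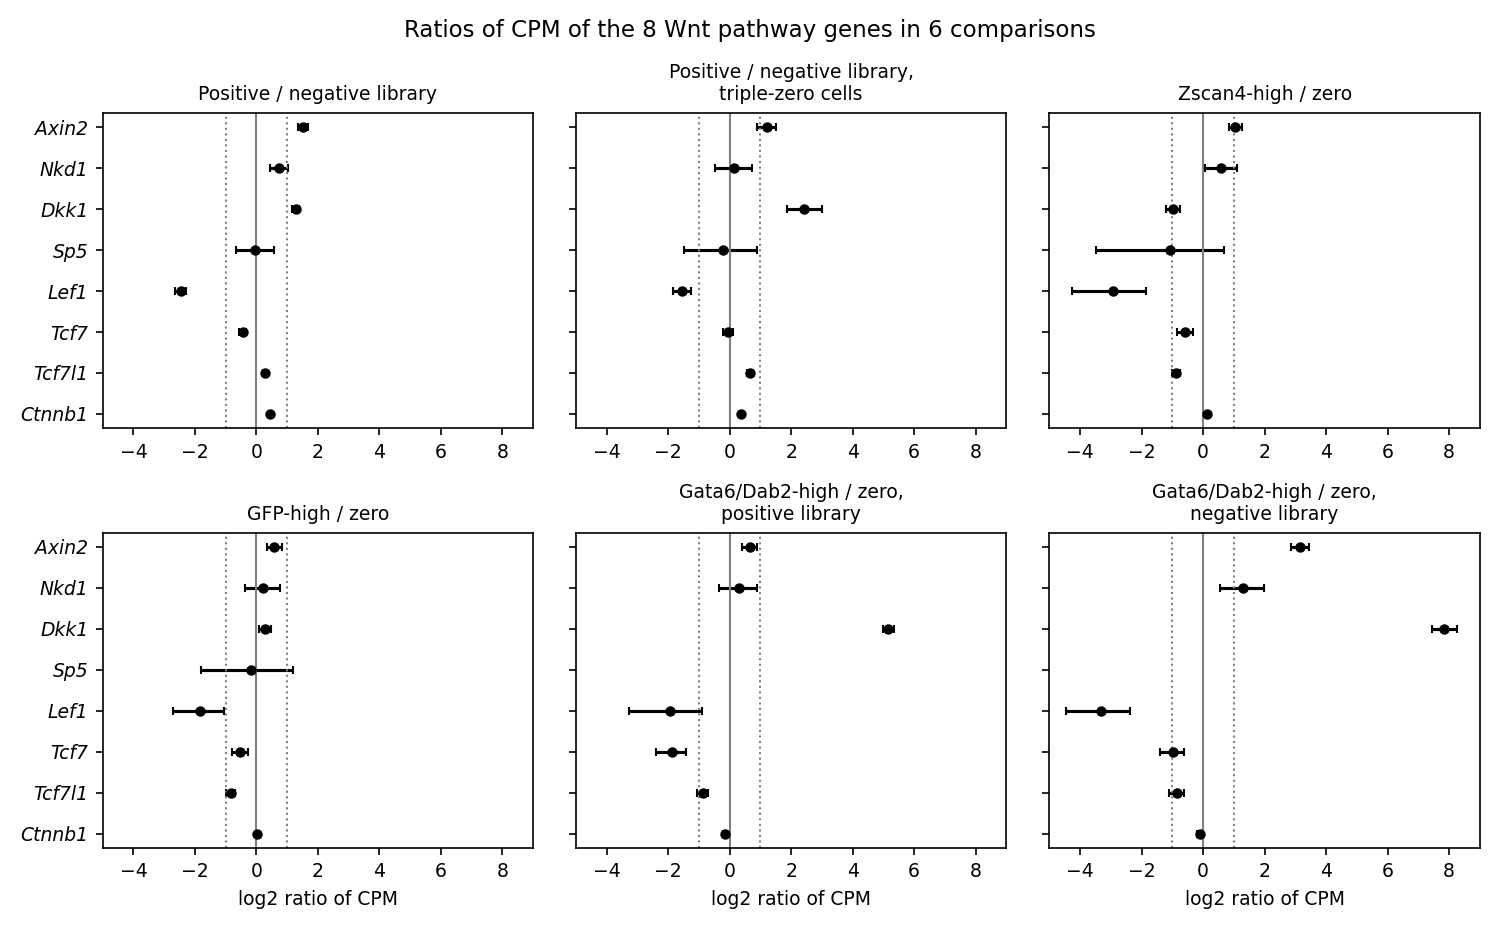
Log2 ratio of CPM of each gene in 6 comparisons, with 95% exact intervals that cover counting error only and dotted lines at 2-fold. Sp5 has no point where a side had 0 UMIs. Lef1 lies left of the lower line in all 6 panels, Dkk1 lies farthest right for Gata6/Dab2, at 35.6-fold and 227-fold, and Ctnnb1 lies near 0.

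Set against all genes, the members' counts were as follows. Between Zscan4-high and zero cells 1 of 7 members tested was at least 2-fold higher, against 9.78% of all genes, and 1 was lower, against 6.62%. Between GFP-high and zero cells 0 members were higher, against 6.23%, and 1 was lower, against 6.66%. Between Gata6/Dab2-high and zero cells of the positive library 1 was higher, against 7.4%, and 2 were lower, against 14.7%. The same contrast in the negative library had 3 higher, against 8.75%, and 1 lower, against 8.33%. In either direction the counts were 2, 1, 3 and 4 of 7, against 16.4%, 12.9%, 22.1% and 17.1% of all genes. Median log2 ratios of the 7 members were -0.59, 0.03, -0.17 and -0.11 in these comparisons, and -0.10, -0.14, -0.13 and 0.02 for all genes tested. The mES markers moved with these classes, at 1156 CPM in Zscan4-high against 2406 CPM in zero cells, 1446 against 2359 by GFP, 547 against 2382 by Gata6/Dab2 in the positive library and 826 against 2504 in the negative library. Primitive endoderm markers stood at 125 against 242 CPM by Zscan4 and 158 against 195.5 CPM by GFP. Trophoblast markers stood at 14.1 against 31.1 CPM and 14.7 against 34.5 CPM. The 2C-like markers, which include the Zscan4 genes, stood at 2116 against 73.6 CPM and 1198 against 152 CPM. The part of all these markers in the members' differences was not tested. The comparisons share cells, so their counts are not independent of each other. Some called members had under 1 CPM on their lower side and passed the filter only through the side where they were high: Lef1 in the 3 comparisons of classes in the positive library, and Dkk1 and Nkd1 in the negative library. The counts are a description and support no direction for the members.

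Cells with 0 thinned UMIs of Zscan4, GFP, Gata6 and Dab2 were compared between the libraries, 787 cells of the positive and 3352 of the negative library. Lef1 was again lower and Dkk1 again higher in the positive library in these cells. Of the 7 members tested, 2 were higher, against 10.2% of all genes, and 1 was lower, against 0.631%, with Dkk1 under 1 CPM in the negative library, which makes 3 of 7 in either direction, against 10.9%. Lef1 stood at 3.79 and 11.1 CPM, 2.94-fold lower (2.41 to 3.63), and 0.0631% of genes had a lower ratio. Dkk1 stood at 2.08 CPM, from 56 UMIs, and 0.387 CPM, from 53 UMIs, a ratio of 5.37 (3.62 to 7.97). Axin2 stood at 4.71 and 2.05 CPM, a ratio of 2.30 (1.85 to 2.84) that was 1.84 under TMM, 1.81 under the median of ratios, 1.87 with 1 CPM added and 1.33 (0.803 to 2.12) on thinned UMIs. The Axin2 difference thus fell below 2-fold in 4 alternatives. The Dkk1 ratio was 2.22 with 1 CPM added, 1 cell held 19.6% of its 56 positive-library UMIs, and on thinned UMIs it had too few counts to be tested. Lef1 stayed past 2-fold in the alternatives run. Tcf7l1 stood at 50.5 and 32.0 CPM, a ratio of 1.58 (1.48 to 1.67), while Tcf7 gave 0.963 (0.857 to 1.08), Nkd1 1.11 (0.719 to 1.65) and Ctnnb1 1.29 (1.26 to 1.33). Marker levels still differed between the libraries in these cells, with no estimate made of free RNA in the droplets: their 2C-like markers summed to 45.5 and 0.161 CPM, their primitive endoderm markers to 19.1 and 8.13 CPM and their parietal endoderm markers to 275 and 115 CPM. Their median depths were 33274 and 39257.5 UMIs. The part of these values in the differences was not tested.

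Over 11 separate groups of cells, made by crossing library, Zscan4 class and Gata6/Dab2 class, Axin2 and Lef1 ran in opposite directions. Groups of fewer than 50 cells were left out, among them the 47 positive-library cells high for both. Axin2 was lowest, at 2.05 CPM, and Lef1 highest, at 11.1 CPM, in negative-library cells at 0 for both. Positive-library cells at 0 for both lay between, at 5.27 and 2.93 CPM. Axin2 was highest in negative-library Gata6/Dab2-high cells, at 18.1 CPM with Lef1 at 1.11 CPM, and next in positive-library cells high for Zscan4 and at 0 for Gata6/Dab2, at 15.1 CPM with Lef1 at 0.333 CPM. Pearson's r of log2(CPM + 1) over the 11 groups was -0.93 for Axin2 with Lef1 and 0.91 for Axin2 with Nkd1. These were the lowest and the highest r of all pairs of members, and Nkd1 had as few as 7 UMIs in a group. They are a description, since groups share libraries and depth.

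**Figure D4:**
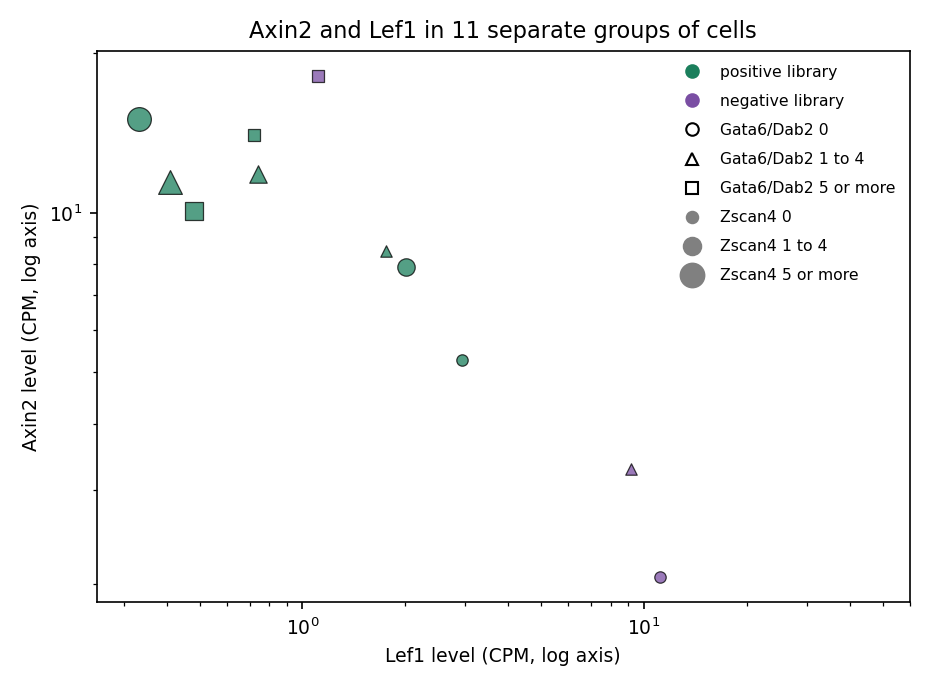
Axin2 against Lef1 level, both in CPM on log axes, in 11 separate groups of cells, with colour for the library, shape for the Gata6/Dab2 class and size for the Zscan4 class. Groups run from the negative-library cells at 0 for both, with 2.05 CPM of Axin2 and 11.1 CPM of Lef1, to groups with over 10 CPM of Axin2 and about 1 CPM of Lef1 or less.

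By the same measure, and among 9119 genes with at least 10 CPM in a group, the genes most like Axin2 were Xiap, Acbd3 and Dld, with r of 0.97, 0.96 and 0.95. Those most like Dkk1 were Pdgfra, Foxq1 and Fbp2, all at 0.99. Pdgfra, a receptor found on primitive endoderm, ran from 0.980 to 155 CPM over the groups and Dkk1 from 0.392 to 118 CPM. Those most like Lef1 were Mif, Cox7b and Snhg6, all at 0.97. The 3 nearest genes were BC051226, Aktip and Trim63 for Tcf7, Usp7, Psmd11 and Supt16 for Tcf7l1, Snx18, Pigyl and Axin2 for Nkd1, and Pcbp2, mt-Nd2 and Atp5b for Ctnnb1. For Sp5, which had at most 0.483 CPM, they were Ercc6l2, Noc3l and Nufip2. These are the highest of 9119 values per member, each over 11 groups, and no test was made of them.

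The other pathway genes were taken as 99 genes in 7 lists by role. Between the libraries 60 were tested, 12 were at least 2-fold higher in the positive library and 1 was lower, against 14.7% and 1.91% of all genes. Their median log2 ratio was 0.37, against 0.22 for all genes, so the list as a whole lay near the background. Some called genes of these lists passed the filter only through the side where they were high, so the counts are a description. Both secretion genes were higher: Wls, which carries Wnt proteins to the cell surface, stood at 16.02 and 2.48 CPM, a ratio of 6.46 (5.79 to 7.21), and Porcn, which attaches the lipid of Wnt proteins and is named here after its value was seen, was 2.73-fold higher (2.52 to 2.96). Of 14 receptors tested 2 were higher, Fzd4 at 5.23 and 0.933 CPM, a ratio of 5.61 (4.69 to 6.75), and Fzd8 at a ratio of 4.34 (3.17 to 6.05), both under 1 CPM in the negative library. Of 4 ligands and potentiators tested 2 were higher, and Rspo3, an R-spondin that strengthens Wnt signals, was 4.35-fold higher (3.12 to 6.18), with both of them under 1 CPM in the negative library. Of 11 inhibitors 3 were higher and 1 lower, with Sfrp5 3.69-fold higher (3.10 to 4.40) and Sfrp4 2.65-fold lower (2.36 to 2.97), both of them secreted Wnt-binding proteins. Of 15 genes of the destruction complex and its transducers, 9 nuclear partners and 5 other targets, 1 each was higher and 0 were lower. All 13 kept their direction under the 4 other scalings, and 9 stayed past 2-fold.

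**Figure D5:**
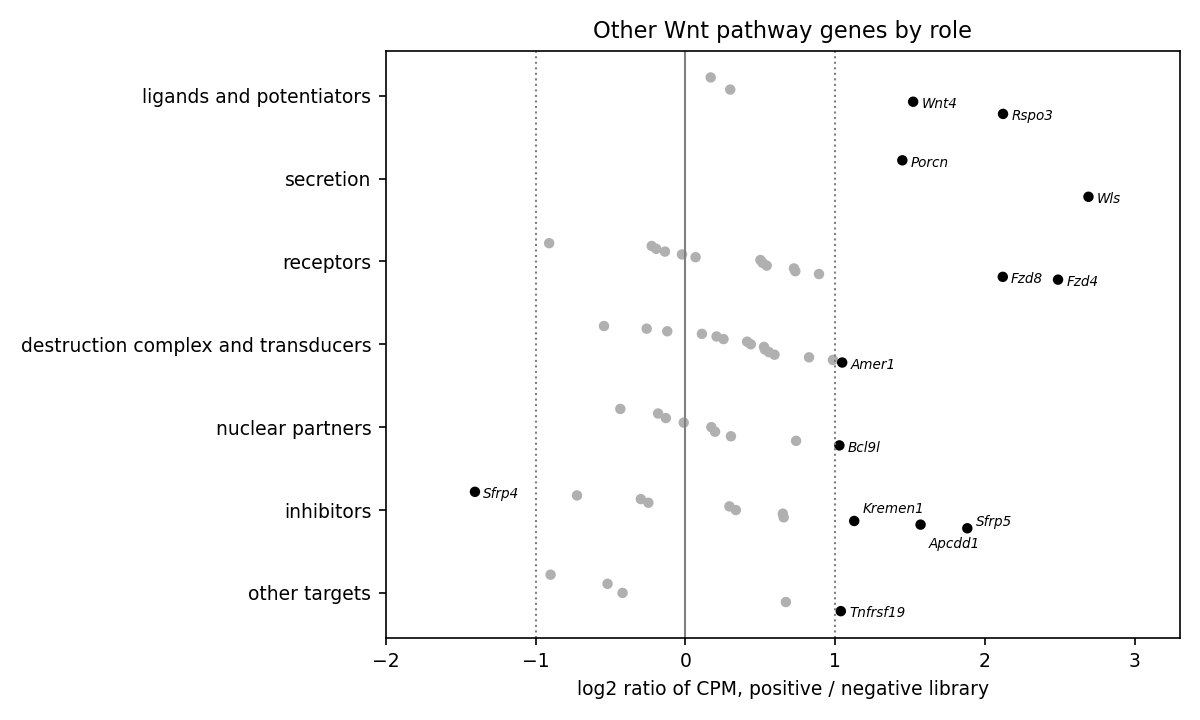
Log2 ratio of CPM between the positive and the negative library for the 60 tested Wnt pathway genes outside the 8 members, by role, with dotted lines at 2-fold. Black points with names are past 2-fold and grey points are not. Of the 13 named genes, 12 lie to the right and Sfrp4 to the left.

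By Zscan4 class 63 of these genes were tested, 3 were higher in high cells and 7 lower, against 9.78% and 6.62% of all genes. Fzd4 stood at 9.29 against 3.73 CPM, a ratio of 2.49 (2.05 to 3.02), Fzd1 was 2.08-fold higher and Nkd2, a relative of Nkd1, 2.01-fold higher. Myc and Ccnd1, a growth factor-responsive transcription factor and a cyclin that are both known as Wnt targets, were 2.92-fold and 2.77-fold lower, followed by Sfrp4, Csnk1e and Sfrp1 at 2.37-fold, 2.32-fold and 2.31-fold lower. Of 5 other targets tested, 2 were lower and 0 higher, whereas Axin2 was higher, so known targets did not share a direction. By GFP 1 of 63 was higher, Fzd4 at a ratio of 2.20, and 4 were lower, Sfrp4 at 3.08-fold, Notum at 2.55-fold, Myc at 2.46-fold and Ror2 at 2.09-fold, against 6.23% and 6.66% of all genes.

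By Gata6/Dab2 class, the genes past 2-fold in the wider inhibitor list were lower in high cells, while the members Dkk1 and Axin2 stood above their zero-class levels. In the positive library 63 genes were tested, 2 were higher and 13 lower, against 7.4% and 14.7% of all genes, and 8 of the 13 were among the 12 inhibitors tested, whose median log2 ratio was -1.84 against -0.13 for all genes. Sfrp5 was 9.64-fold lower (4.40 to 26.4), Sfrp4 8.10-fold (3.44 to 25.1), Notum, an enzyme that removes the lipid of Wnt proteins, 7.32-fold (3.33 to 20.1) and Wif1 6.49-fold from 2 UMIs in high cells (1.75 to 54.3). Cdx1 had 0 UMIs in high cells and was 5.42-fold lower against a floor of 3 counts. The exact interval gave a lower bound of 4.35-fold. The ligands Wnt11 and Wnt6 were 3.07-fold and 2.95-fold higher. For the negative library 59 genes were tested, 6 were higher and 8 lower, against 8.75% and 8.33% of all genes. Of the 10 inhibitors tested 5 were lower, and the median log2 ratio of the 10 was -0.54, against 0.02 for all genes. Wnt16 stood at 7.03 against 0.123 CPM, a ratio of 57.1 (32.7 to 105), Wnt6 at 21.5 against 3.303 CPM, a ratio of 6.495 (5.42 to 7.75), and Wnt11, Sp8 and Bcl9l followed at 4.37, 3.65 and 2.66. Sfrp5 was 9.28-fold lower from 1 UMI in high cells (1.64 to 369), Notum 5.405-fold, Sfrp4 4.71-fold, Ccnd1 4.65-fold and Rspo1 2.96-fold. These counts are of the wider inhibitor list, which does not hold the feedback inhibitors Dkk1, Axin2 and Nkd1, and Nkd1 had a ratio of 1.24 (0.793 to 1.86) in the positive library.

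In cells at 0 for Zscan4, GFP, Gata6 and Dab2, 60 of the wider genes were tested between the libraries, 8 were higher in the positive library and 0 lower, against 10.2% and 0.631% of all genes. Wls stood at 12.8 and 2.28 CPM, a ratio of 5.64 (4.82 to 6.59), and Fzd8, Sfrp5, Wif1 and Fzd4 followed at 4.22, 3.82, 3.46 and 3.03. Of the 8, 6 stayed past 2-fold under the 4 other scalings. The secretion gene Wls, the receptors Fzd4 and Fzd8 and the inhibitor Sfrp5 were past 2-fold higher over whole libraries and in these cells. So were Porcn, the inhibitor Apcdd1 and the target Tnfrsf19, named here after their values were seen. These cells are part of the same libraries, so the comparisons are not independent of each other.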

How the data were processed

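Single-cell transcripts were measured in 1 MERVL-GFP positive and 1 MERVL-GFP negative library. Both files as deposited hold counts, in whole numbers, for each gene in each cell. They were read as UMIs because each cell has a 16-base barcode, and molecule counting is not stated. The submitters' processing notes name FastQC 0.11.2, Trim Galore 0.6.4, STAR 2.7.6a and mm10, while the counting and cell calling are not given in the sources used here, and the labels' extraction protocol describes a bulk kit.

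Cells with at least 1000 UMIs, 500 genes and at most 20% mitochondrial UMIs were kept, 4596 and 3832. UMIs were summed per group of cells and scaled to CPM over all genes. Levels were not compared between genes, since the part of a transcript that was read is not stated. Cells with at least 10000 UMIs were thinned for classing, which left out 194 and 8 cells, and groups under 50 cells gave no level. No doublet caller was run. Levels have exact Poisson intervals, shares exact Clopper-Pearson intervals and ratios exact conditional binomial intervals, at 95%, which cover counting error only and not differences between cells or cultures. No test was possible without a further library in each group, and a 2-fold ratio describes these libraries. A side with 0 UMIs was set to a floor of 3 counts.

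The 8 genes, the 7 wider lists and the markers were chosen with earlier results of these data known. Named genes were the 8 members, up to 5 wider genes in each direction per comparison by size of ratio, and the 3 most similar genes of each member. Dkk1 was also compared without its top cells, an alternative chosen after seeing the data. Promoters came from RefSeq on GRCm38.p6. The steps were tested on simulated data. Alternatives changed cell filter, scaling, pseudocount, class limits and thinning. TMM factors came from edgeR 4.0.16 in R 4.3.3, and other steps used scipy 1.17.1, pandas 2.3.3, numpy 2.4.6 and matplotlib 3.10.9 in Python 3.11.15.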

Additional observations from a re-analysis of the deposited data

Results flagged for a closer look

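Of the 107 Wnt pathway genes looked at, 3 had ratios of Gata6/Dab2-high to zero cells that lay on opposite sides of 1 in the 2 libraries, with counting intervals apart from 1. Wls had a ratio of 0.569 in the positive library, at 9.36 against 16.4 CPM, and of 1.59 in the negative library, at 3.70 against 2.32 CPM. Amer1, a scaffold of the destruction complex, had ratios of 0.768 and 1.25. Myc had ratios of 0.628 and 1.70. The difference between the libraries was not tested for these genes, since each library is 1 sample.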

How the results depend on the processing

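Over 46 ratios of members and 18 settings, 563 alternative values were computed, of which 474 lay within the counting interval of the reported ratio, 82 outside it on the same side of 1 or from a ratio whose interval held 1, and 7 on the other side of 1 from a ratio whose interval left out 1. These 7 were Tcf7l1 between the libraries under TMM (0.982) and median of ratios (0.983), Nkd1 for Gata6/Dab2 in the negative library on thinned UMIs (0.963), Dkk1 by GFP classed at 5000 UMIs (0.563), Ctnnb1 for Gata6/Dab2 in the negative library classed at 5000 UMIs (1.01), and Dkk1 by Zscan4 among cells with 0 Gata6/Dab2 UMIs, with its top cells (2.65) and without them (2.29, chosen after seeing the data). Ratios of Nkd1, Sp5 and Ctnnb1 whose intervals held 1 also crossed it in some alternatives, among them Nkd1 by GFP (0.393), Sp5 by GFP (1.48) and Ctnnb1 by GFP (0.986) in cells at 0 for Zscan4, Gata6 and Dab2. Where a value rests on other cells, the cells are the difference, and the cause of the other moves was not tested.

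Between the libraries, 2141 genes were higher and 279 lower. The lower count was 706 under TMM, 702 under the median of ratios and 114 with 1 CPM added, when 1243 were higher. A ratio of 1.5 gave 4000 and 979, a ratio of 4 gave 825 and 10, a minimum of 10 CPM gave 625 and 94, and no filter on low counts gave 8936 and 3679. Of the members, 1 was counted as higher under TMM and the median of ratios (Axin2, with Dkk1 at 1.99) and 1 at a minimum of 10 CPM (Dkk1, since Axin2 is then not tested), and 0 were higher past a ratio of 4, where Lef1 was still counted as lower. In cells at 0 for Zscan4, GFP, Gata6 and Dab2, 1 member, Dkk1, was higher under TMM, the median of ratios and 1 CPM added, and 0 on thinned UMIs, where Dkk1 fell under 50 UMIs in all. By Zscan4, 0 members were higher with 1 CPM added or a high class from 3 UMIs, and 2 among cells with 0 Gata6/Dab2 UMIs, while 2 were lower with the mean over cells, without cells above 2 times the median UMIs and with a high class from 10, and 3 on thinned UMIs. By GFP, 2 were lower on thinned UMIs and with a high class from 10, and 1 was higher, Axin2 at 2.42, among cells at 0 for Zscan4, Gata6 and Dab2, chosen after seeing the data. By Gata6/Dab2, 2 were higher in the positive library among Zscan4-zero cells. In the negative library 2 were lower under TMM, the median of ratios, totals without mitochondrial and ribosomal protein genes, the mean over cells, without cells above 2 times the median, with a high class from 3 and when classed at 5000, and 3 with a high class from 10. There Nkd1 was no longer counted as higher with 1 CPM added or on thinned UMIs.

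No paired analysis was possible because there is only 1 library on each side. For the same reason leaving out a library gives no comparison. Limits for the high class do not apply to cells at 0 for the markers. Sp5 had 0 UMIs on a side in the Gata6/Dab2 comparisons, where a value against the floor stands in for a ratio and no alternative was computed. Called genes of the wider lists that stayed past 2-fold under 4 other scalings were 9 of 10 by Zscan4, 4 of 5 by GFP, and 13 of 15 and 13 of 14 by Gata6/Dab2 in the positive and negative library. Depth limits Sp5, Nkd1 and the high classes of Lef1, where 7 to 15 UMIs were summed.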
